A study of Oryctolagus cuniculus with 12 samples.

Results

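The basilar artery of rabbits 7 days after experimental subarachnoid hemorrhage was set against the basilar artery of control rabbits. The comparison rests on 6 of the 12 arrays of the series: the 3 whose source name gives day 7 and the 3 whose source name gives control, a group the labels also call normal and the design text lists as day 0. The day 7 group is labelled SAH (day7), and the other 6 arrays, 3 at day 3 and 3 at day 5, are used where the levels on day 7 are placed beside earlier days. The labels give no strain, sex, age or method of hemorrhage for either group, name no sham operation, and do not say whether the replicates of a group came from separate animals, so the p-values reflect only the variation among these samples, part or all of which may be technical.

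In subarachnoid hemorrhage blood escapes beneath the arachnoid membrane, among the large arteries of the brain, and the basilar artery then lies in clotted blood. In the days that follow, red cells lyse and release hemoglobin, whose heme is broken down to iron and bilirubin, while leukocytes enter the clot and the outer layers of the vessel. The artery can narrow for days, a state called cerebral vasospasm, in which endothelin, nitric oxide, calcium entry, inflammation and remodelling of the wall have all been studied.

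Each level below is the log2 processed signal of a probe minus the 75th percentile of its array, so that 0 marks a spot at that percentile, and each change is a difference of these levels, day 7 minus control, with its standard error (SE) from the fit. Changes were tested with limma, an empirical Bayes linear model fitted across all tested probes of the 12 arrays, and a call means a p adjusted by Benjamini and Hochberg's method that is under 0.05. All adjusted p-values below come from that fit unless another setting is named. Probes entered the test when the scanner software marked them well above background on every day 7 array or on every control array, and a gene takes the value of its brightest tested probe.

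The arrays differed in quality. The 75th percentile of the processed signal lay between 127 and 161 on the day 7 arrays and between 136 and 189 on the control arrays, and no spot was saturated. On control replicate 2, 50.1% of spots were well above background and 169 were outliers, whereas the other 11 arrays had 58.2 to 64.0% and 1 to 16. Arrays of the same replicate number share a slide, on which day 7 always sits at position 4 and control at position 1; group and position cannot be told apart. Smooth muscle transcripts were present: all 5 smooth muscle markers (ACTA2, MYH11, TAGLN, MYL9 and LMOD1) were well above background on all 6 arrays. These markers do not tell the basilar artery from other smooth muscle. Whole arteries were measured, so fewer cells of a type and less RNA per cell cannot be told apart.

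On day 7, 155 named genes rose, which is 2.15% of the 7209 tested, and 46 fell, which is 0.638%. Of the rises, 33 had a fitted size of over 4-fold and 92 of 2- to 4-fold, while of the falls 1 exceeded 4-fold and 17 lay between 2- and 4-fold. In all 201 genes the 3 day 7 arrays and the 3 control arrays did not overlap, which held for 1695 of the genes tested (23.5%), and 1425 genes (19.8%) had an unadjusted p below 0.05. At the level of probes, 509 rose and 116 fell among 25252. Of the 83 called genes with several tested probes, 52 had every tested probe called. Among the genes named below, TFRC had 2 of 3 probes called, and PLAU, XAF1, DYNC1I1 and ITGA6 each had 1 of 2. The median change of all named genes was 0.04, and 54.39% of them were above 0. With the slide as a replicate block, 234 genes rose and 75 fell, and 191 of the 201 were among them; the median change within slides 1, 2 and 3 was 0.02, 0.16 and -0.07. The counts rest on every array: leaving out day 7 replicate 1, 2 or 3 gave 64, 87 or 74 rises and 7, 13 or 10 falls, and leaving out control replicate 1, 2 or 3 gave 97, 86 or 334 rises and 10, 21 or 244 falls. Of the rises, 21 had no control array well above background. An alternative, normexp background correction, models the background in place of subtracting it and here also added an offset of 50 to each signal. Such an offset by itself makes the log2 changes of dim probes smaller, and its part in the normexp results below was not tested. With normexp none of these 21 was called, and 82 genes rose and 14 fell in all. The calls of 60 genes, 56 higher and 4 lower, were kept when any 1 of the 6 arrays was left out, and those are the genes given most room below.

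**Figure D1:**
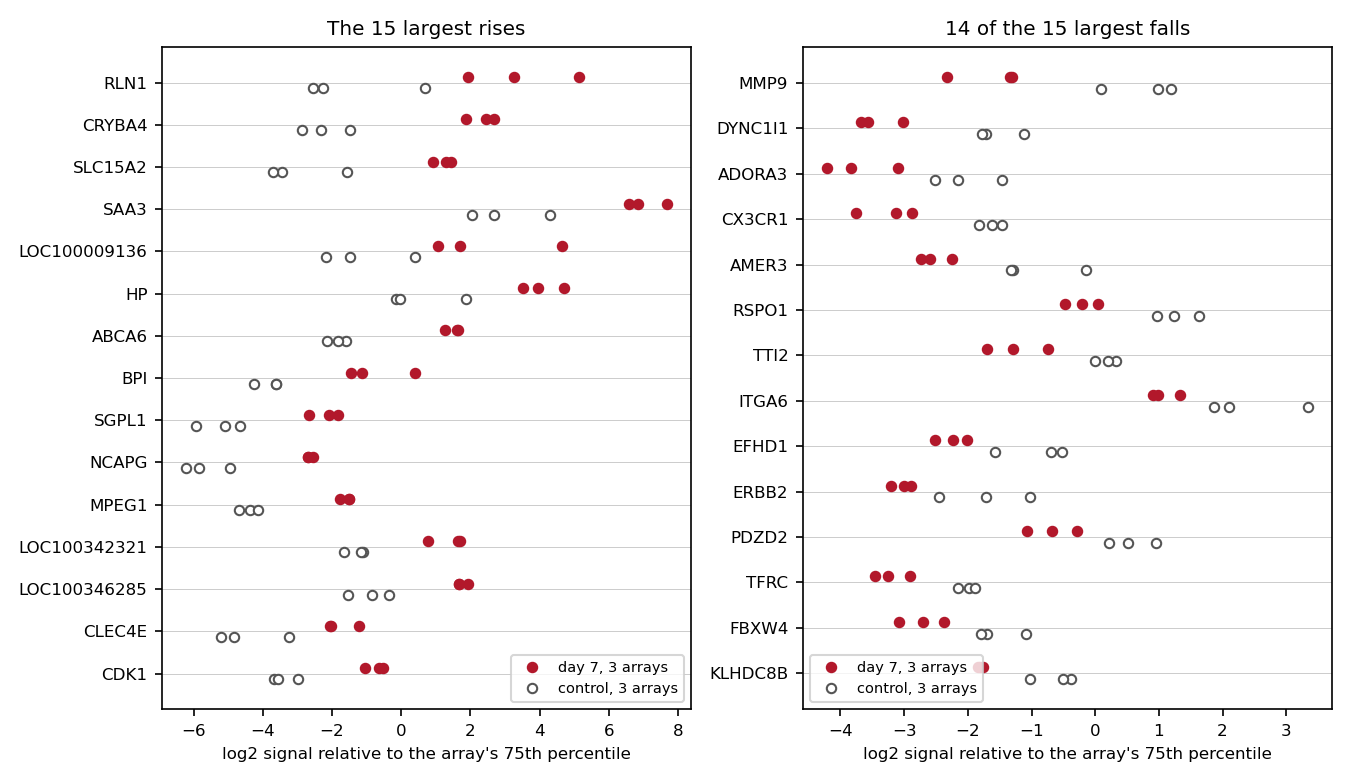
Levels of the 15 genes with the largest rises (left) and 14 of the 15 with the largest falls (right) on day 7. Each filled point is 1 day 7 array and each open point 1 control array, on the log2 scale with 0 at the array's 75th percentile. The genes were chosen among those whose groups do not overlap. RLN1 and LOC100009136 have the widest spread within the day 7 group.

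The largest rise whose call was kept without each array was that of CRYBA4, a beta-crystallin, a family known as structural proteins of the eye lens. Its level was 2.45, 1.88 and 2.68 on the day 7 arrays, against -1.49, -2.86 and -2.31 on the control arrays. That is a change of 4.56 ± 0.47 (SE), or 23.6-fold, with an adjusted p of 0.00062. Both tested CRYBA4 probes rose, and the one shown was designed from a lens cDNA clone. Its change within slides 1, 2 and 3 was 3.94, 4.75 and 4.99. Of the 3 control arrays 2 were well above background, and with normexp background correction the change was 3.10.

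SLC15A2, the proton-coupled transporter PEPT2 that takes up small peptides, had levels of 1.43, 1.29 and 0.90 on day 7, against -3.45, -3.69 and -1.58 in the controls. It rose 17.3-fold (change 4.12 ± 0.45 (SE), adjusted p = 0.000907), and all 4 of its probes were called; 2 of the 3 control arrays were well above background, and with normexp background correction the change was 2.23. FOLR1, a folate receptor, had levels of -0.19, -0.06 and -0.42 on day 7, against -1.44, -2.70 and -1.76 in the controls, and rose 3.35-fold (adjusted p = 0.00764), with 2 of the 3 control arrays well above background and a change of 1.75, against 0.94 with normexp. Both belong to a list of 17 measured barrier and choroid plexus transporters, of which these 2 rose, 0 fell and 15 were not called, with a median change of 0.16.

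RLN1, the hormone relaxin, had the largest fitted change of any called gene but also a wide spread. Its level was 1.93, 3.25 and 5.13 on day 7, against -2.27, -2.55 and 0.68 in the controls, so that the lowest day 7 array stood above the highest control array. The change was 4.82 ± 0.97 (SE) with an adjusted p of 0.024, and 3 of its 4 probes were called; with normexp the change was 3.68. Without control replicate 1 or 2, or day 7 replicate 2 or 3, the call was lost (adjusted p up to 0.0952). RDH10, an enzyme that makes retinal from retinol, rose 5.67-fold, with levels of 4.76, 4.71 and 5.24 on day 7 and 1.98, 2.34 and 2.88 in the controls (adjusted p = 0.00733).

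Acute-phase proteins are secreted in inflammation, mainly by the liver but also by other tissues. Of 5 measured genes of this list, 3 rose (SAA3, HP and ORM1) and 0 fell, with a median change of 2.35. SAA3, a serum amyloid A that the array describes as a pseudogene, had levels of 7.68, 6.85 and 6.57 on day 7, against 2.69, 2.05 and 4.30 in the controls, and rose 16.3-fold (change 4.02 ± 0.52 (SE), adjusted p = 0.00232). HP, haptoglobin, which binds free hemoglobin, had levels of 3.96, 3.52 and 4.70 on day 7, against -0.14, -0.04 and 1.87 in the controls. It rose 11.3-fold (change 3.50 ± 0.55 (SE), adjusted p = 0.00694). Control replicate 3 was the highest of the controls for both, and the within-slide change of SAA3 was 5.0, 4.80 and 2.27 on slides 1, 2 and 3. ORM1, orosomucoid, was not well above background on any control array and rose at least 1.09-fold; its call was lost without each of the arrays other than control replicate 3 (adjusted p up to 0.133) and with normexp (adjusted p = 0.577). CRP, C-reactive protein, changed by -0.06 (adjusted p = 0.898).

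Genes of heme and iron handling moved in both directions. Of 15 measured genes of the heme, iron and oxidative stress list, 3 rose, 1 fell and 11 were not called, with a median change of 0.53. CP, ceruloplasmin, the copper protein that oxidizes iron, had levels of 5.73, 5.26 and 5.65 on day 7, against 3.62, 3.39 and 3.89 in the controls, a 3.77-fold rise (adjusted p = 0.00121). FTL, the light subunit of the iron store ferritin, had levels of 9.05, 9.03 and 9.05 on day 7, against 7.80, 7.14 and 8.03 in the controls, a 2.61-fold rise (adjusted p = 0.00782). GCLM, a subunit of the enzyme that starts glutathione synthesis, had levels of -0.22, -0.40 and 0.05 on day 7, against -1.54, -1.62 and -1.40 in the controls, a 2.51-fold rise with all 5 probes called (adjusted p = 0.00586). TFRC, the transferrin receptor that takes up iron, fell (change -1.19 ± 0.27 (SE), adjusted p = 0.0402); its levels were -2.91, -3.46 and -3.25 on day 7, against -1.98, -1.89 and -2.16 in the controls. Its call was lost without each of the arrays other than control replicate 3 (adjusted p up to 0.129) and with normexp (change -0.40, adjusted p = 0.386).

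A probe that the array describes as heme oxygenase 1, and that carries no identifier of the gene table, belongs beside this list without being counted in it. This HMOX1 probe, for the enzyme that opens heme, had levels of 0.26, 0.31 and 0.41 on day 7, against -2.22, -2.92 and -2.28 in the controls. It rose 6.99-fold (change 2.80 ± 0.37 (SE), adjusted p = 0.00256), and the call was kept without each of the 6 arrays. Of the 3 control arrays 2 were well above background. Such probes were looked up by their description after values had been seen. For 28 symbols, 46 tested probes were found, of which 16 rose and 0 fell, beside 509 rises and 116 falls among all 25252 tested probes. These are probes and not genes, and several of the 16 are for COL1A2. No tested probe described as FN1, SOD2, CCNA2, POSTN, VCAN or TGFB1 was called. Globin transcripts were present in both groups. HBA had levels of 6.81, 6.58 and 6.16 on day 7, against 5.62, 4.72 and 5.02 in the controls, a difference that was not called (change 1.40, adjusted p = 0.154), and HBB2 was not called either (change 1.48, adjusted p = 0.191). The summed linear signal of the 2 measured erythroid markers of 4, HBA and ALAS2, was 71.9 to 113 on day 7 and 26.4 to 49.4 in the controls, in units of the 75th percentile. Most of that sum came from HBA, and ALAS2 was not called (change 0.36, limma adjusted p = 0.746). The part of blood in the changes above was not tested.

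Genes of macrophages rose in part. Of 9 measured members, 5 rose, 0 fell and 4 were not called; the median change was 1.55, and 1.17, 1.55 and 1.54 within slides 1, 2 and 3. CD68, a lysosomal glycoprotein of macrophages, had levels of 1.12, 0.74 and 0.91 on day 7, against -0.87, -1.32 and -1.03 in the controls, a 3.99-fold rise (change 2.0 ± 0.19 (SE), adjusted p = 0.000455). MRC1, the mannose receptor, had levels of 2.28, 1.89 and 2.80 on day 7, against 0.31, -0.23 and 0.77 in the controls, a 4.11-fold rise (adjusted p = 0.00465). CD14, which presents lipopolysaccharide to its receptor, had levels of 3.91, 3.63 and 3.65 on day 7, against 2.57, 1.86 and 2.11 in the controls, a 2.93-fold rise (adjusted p = 0.00381). CYBB, the catalytic subunit of the phagocyte oxidase, rose 3.08-fold (change 1.62, adjusted p = 0.00782), against a change of 0.90 with normexp. The scavenger receptor MSR1, well above background on 1 of the 3 control arrays, had a fitted change of 2.22 (adjusted p = 0.0271), but 0.63 with normexp, and its call was lost there (adjusted p = 0.11) and without control replicate 2 or day 7 replicate 1 or 3 (adjusted p up to 0.111). The summed linear signal of the 4 measured macrophage markers of 5 was 18.0 to 22.5 on day 7 and 5.79 to 8.84 in the controls. CD74, the invariant chain of class II molecules, and the integrin subunit ITGAM were not called (changes -0.45 and 0.19).

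Several other genes of myeloid cells were among those whose calls were kept without each array, and were picked out for that after their values were seen. MPEG1, a pore-forming protein of macrophages, was well above background on no control array, with levels of -1.51, -1.76 and -1.52 on day 7 and -4.36, -4.67 and -4.14 in the controls; it rose at least 3.90-fold, and all 5 of its probes were called (adjusted p = 0.000608). AOAH, which inactivates lipopolysaccharide, rose 4.01-fold (adjusted p = 0.00555), and TLR4, the receptor for lipopolysaccharide, rose 2.63-fold (adjusted p = 0.0057). The co-stimulatory molecule CD86 was the 1 of 8 measured antigen presentation genes that was called, with a fitted change of 1.70 (adjusted p = 0.00445). CLEC4E, a receptor of myeloid cells, had a fitted change of 2.66 (adjusted p = 0.0234), but without each of the arrays other than control replicate 3 it was not called (adjusted p up to 0.0997). Both CD86 and CLEC4E were well above background on 1 of the 3 control arrays. With normexp background correction the changes of MPEG1, CD86 and CLEC4E were 0.79, 0.48 and 0.79, and none of the 3 was called (adjusted p of 0.084, 0.236 and 0.107).

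Lysosomal enzymes rose in part, with 5 of 12 measured genes called higher, 0 lower and 7 not called (median change 0.87); with normexp the count called higher was 2, without control replicate 1 the count was 3, and without day 7 replicate 1 or 3 it was 2. GUSB, beta-glucuronidase, had levels of 2.64, 1.97 and 2.02 on day 7, against 0.75, 0.44 and 1.07 in the controls, a 2.75-fold rise (adjusted p = 0.00644). CTSH, the protease cathepsin H, had levels of 3.51, 3.13 and 3.24 on day 7, against 2.10, 1.79 and 2.11 in the controls, a 2.45-fold rise (adjusted p = 0.00404). LIPA, lysosomal acid lipase, whose probe the array describes as similar to lipase F, rose 2.54-fold, and HEXA, a hexosaminidase subunit, rose 1.59-fold. The calls of LIPA and HEXA were both lost without control replicate 1, without day 7 replicate 1 and without day 7 replicate 3, and that of HEXA also without control replicate 2 (adjusted p up to 0.132 for LIPA and 0.155 for HEXA). With normexp neither was called (adjusted p of 0.107 and 0.0988), and the change of LIPA was 0.57, against 1.34 as reported. A probe described as cathepsin D, CTSD, rose 2.85-fold, with levels of 1.83, 1.62 and 1.74 on day 7 and 0.79, 0.13 and -0.26 in the controls (adjusted p = 0.0082).

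**Figure D2:**
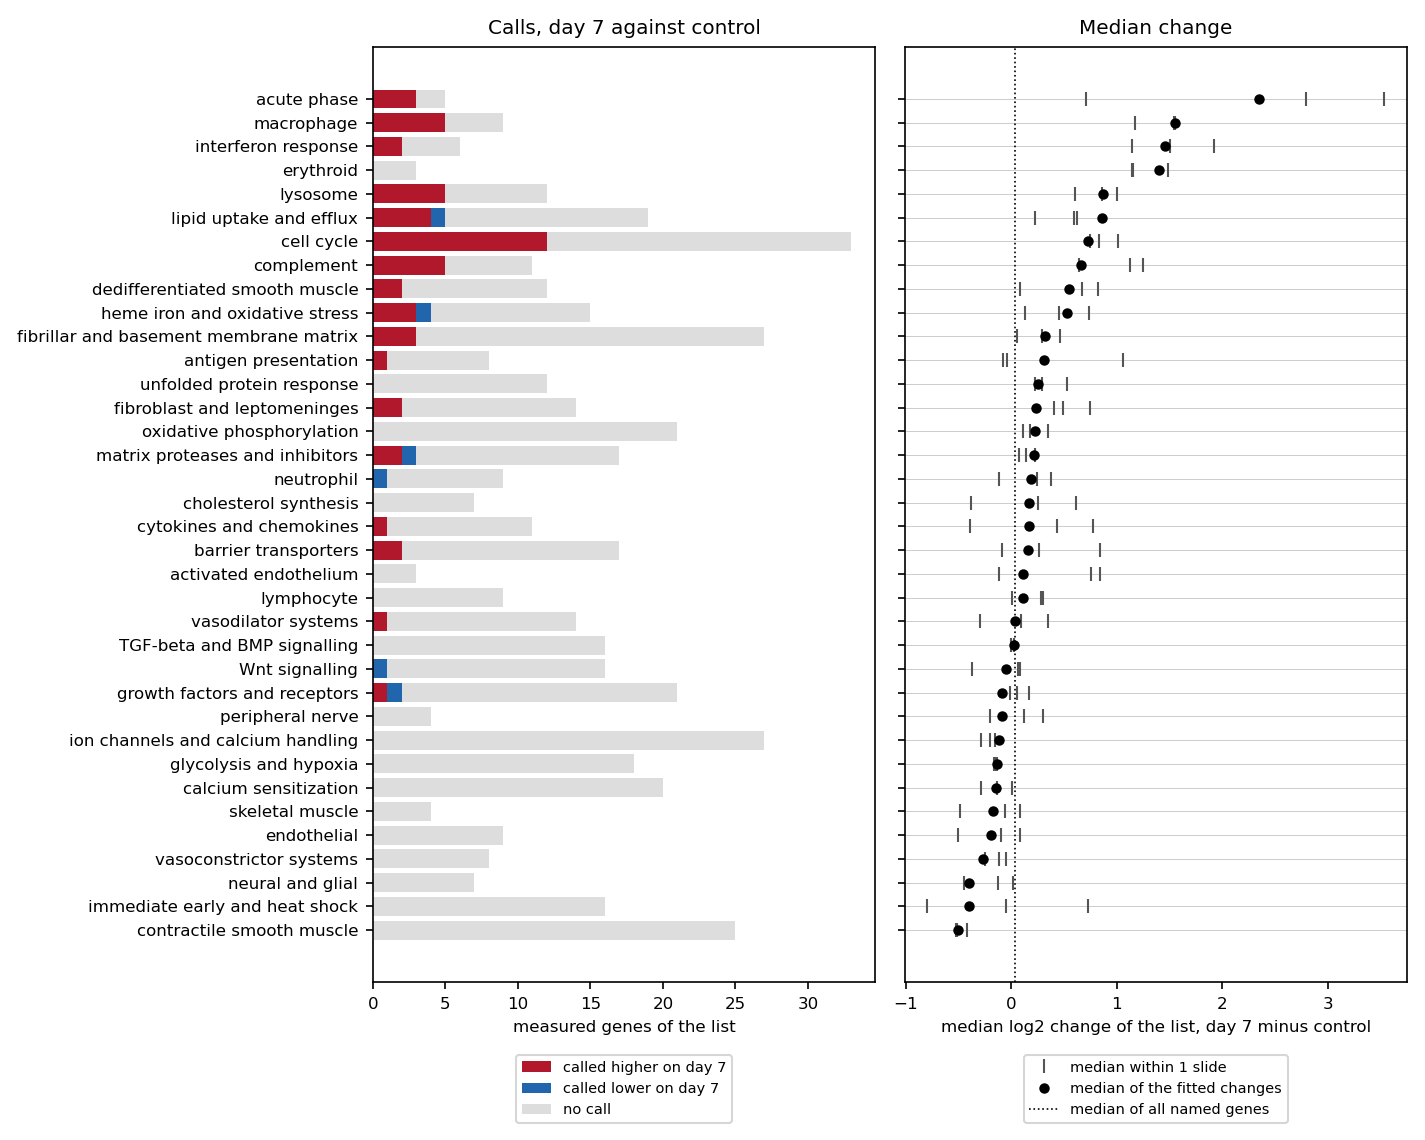
Gene lists ordered by their median change. The left panel counts the measured genes of each list that were called higher on day 7, called lower or not called; the right panel gives the median log2 change, day 7 minus control, with ticks for the medians within each of the 3 slides. Acute phase (2.35), macrophage (1.55) and interferon response (1.46) have the highest medians and contractile smooth muscle (-0.51) the lowest, and the acute phase medians spread widely between slides.

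Complement genes rose in part. Of 11 measured members, 5 rose, 0 fell and 6 were not called (median change 0.66), and 7 were called higher without control replicate 3, but 1 without control replicate 2 or day 7 replicate 3 and 2 without day 7 replicate 1. C1R, a serine protease of the C1 complex whose probe the array describes as MASP1, had levels of 5.46, 5.23 and 5.40 on day 7, against 4.0, 3.48 and 3.68 in the controls. It rose 3.12-fold (change 1.64 ± 0.16 (SE), adjusted p = 0.000455), with all 4 probes called. C1RL, a C1r-like protease outside the list and picked after its values were seen, rose 3.36-fold (adjusted p = 0.000455). C3, the component on which the complement pathways converge, had levels of 2.07, 1.99 and 2.53 on day 7, against 0.68, -0.48 and 0.02 in the controls. It rose 4.36-fold (adjusted p = 0.0168), a call lost without control replicate 2 or day 7 replicate 1 or 3 (adjusted p up to 0.0749). C7, a part of the membrane attack complex, rose 2.22-fold, but not without control replicate 2 or day 7 replicate 3 (adjusted p up to 0.0766), and C1S rose 1.89-fold, but not without control replicate 2 or day 7 replicate 1 or 3 (adjusted p up to 0.0951). C6, another part of that complex, was well above background on no control array and rose at least 1.20-fold, a call lost without each of the arrays other than control replicate 3 (adjusted p up to 0.149). With normexp C6 and C1S were not called (adjusted p of 0.556 and 0.0524).

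All 6 measured interferon response genes had a change above 0, from 0.80 to 2.24 (median 1.46), and 2 of them, IFIT3 and XAF1, were called. Their fitted changes were 2.02 for IFIT3 (adjusted p = 0.0382), well above background on 2 of the 3 control arrays, and 2.24 for XAF1 (adjusted p = 0.048), well above background on 1. With normexp the changes were 0.77 and 0.64, and neither was called (adjusted p of 0.208 and 0.302). Without control replicate 2 or 3 the count was 1, and without each of the other 4 arrays 0; IFIT3 lost its call without each of the 6 arrays (adjusted p up to 0.125), as XAF1 did without each but control replicate 2 (adjusted p up to 0.145) and in the fit with a slide block (adjusted p = 0.0512). Firmer calls came from genes not counted in the list because its symbols did not match them, picked after their values were seen. RIGI, a sensor of viral RNA, is on the list under its older symbol DDX58. Its levels were 0.73, 0.81 and 0.89 on day 7, against -0.83, -0.61 and -0.93 in the controls, a 3.03-fold rise (adjusted p = 0.00233). LOC100358763, described as interferon regulatory factor 7 (IRF7, also on the list), had levels of 5.28, 5.96 and 5.50 on day 7, against 3.40, 3.31 and 3.40 in the controls, a 4.63-fold rise (adjusted p = 0.00465). Among further members found by description, GBP5, well above background on 2 of the 3 control arrays, rose 2.90-fold (adjusted p = 0.00824). MX1 was not called (change 0.83, adjusted p = 0.216). LOC100342321, described as similar to an interferon-induced protein, rose 6.40-fold (adjusted p = 0.0224), a call lost without control replicate 1 or 2 or day 7 replicate 2 or 3 (adjusted p up to 0.0885), with a change of 2.68, against 1.91 with normexp.

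Cytokines were mostly not called. Of 11 measured cytokine and chemokine genes, 1 rose and 0 fell (median change 0.17): IL1RN, which the array describes as an interleukin-1 receptor, rose 2.42-fold (adjusted p = 0.0351), but not without each of the arrays other than control replicate 3 (adjusted p up to 0.121) and not with normexp (adjusted p = 0.0744). The chemokine CCL2 changed by 0.69, and TNF by 0.12, neither of them called. IL1B, interleukin 1 beta, had levels of -1.91, -0.39 and -2.96 on day 7, against -0.84, 1.17 and 0.90 in the controls, and the groups overlapped (change -2.16, adjusted p = 0.108). Of 9 measured lymphocyte genes, limma called 0, with 2 below an unadjusted p of 0.05, 1 higher and 1 lower, near the share over all genes. The lower one was GZMK, granzyme K, with levels of -5.16, -4.28 and -3.06 on day 7, against -1.82, -1.17 and -2.35 in the controls (change -2.38, adjusted p = 0.124). GZMK was well above background on 1 of the 3 day 7 arrays, and with normexp its change was -0.51. With the slide as a replicate block PTPRC, the leukocyte antigen CD45, was called higher (change 0.99, adjusted p = 0.0396, against 0.0956 as reported). The T and B cell markers CD3E, CD79B and CD2 were too dim to test. LOC100346285, described as similar to granzyme A, a protease of cytotoxic lymphocytes, nonetheless rose 6.34-fold, with levels of 1.93, 1.66 and 1.68 on day 7 and -1.52, -0.84 and -0.36 in the controls (change 2.67, adjusted p = 0.00116), against a change of 1.91 with normexp.

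Of 9 measured neutrophil genes, 0 rose and 1 fell, MMP9, while MPO, the peroxidase of neutrophil granules, changed by 0.41 (adjusted p = 0.496). The antimicrobial proteins LOC100009136 and BPI were among the 15 largest rises all the same. LOC100009136, described as corticostatin-6, a defensin of rabbit leukocytes, had levels of 4.65, 1.05 and 1.71 on day 7, against 0.40, -1.48 and -2.17 in the controls, so that day 7 replicate 1 stood far above the other 2 (adjusted p = 0.048). BPI, which binds bacterial lipopolysaccharide, had levels of 0.40, -1.45 and -1.14 on day 7, against -3.61, -3.62 and -4.26 in the controls (adjusted p = 0.025). The call of LOC100009136 was lost without control replicate 2 or 3 or day 7 replicate 1 or 3 (adjusted p up to 0.133) and with normexp (adjusted p = 0.0573), and that of BPI without control replicate 1 or 2 or day 7 replicate 1 or 3 (adjusted p up to 0.0989). The fitted changes of LOC100009136 and BPI were 3.55 and 3.10, against 2.72 and 1.20 with normexp, and BPI was well above background on 1 of the 3 control arrays.

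Genes of lipid handling included 4 rises and 1 fall among 19 measured (median change 0.86). ABCA6, a lipid transporter of the ABC family, had levels of 1.65, 1.28 and 1.61 on day 7, against -1.59, -2.15 and -1.82 in the controls, a 10.3-fold rise with all 3 probes called (change 3.36, adjusted p = 0.00465), against a change of 2.29 with normexp. SGPL1, which degrades sphingosine 1-phosphate, was well above background on no control array and rose at least 2.58-fold (adjusted p = 0.00161), a call not made with normexp background correction (adjusted p = 0.242). MSR1 and LIPA, counted above with macrophages and lysosomes, are the other rises. APOE, the apolipoprotein E, fell: its levels were 3.66, 3.75 and 3.94 on day 7, against 4.53, 4.62 and 4.29 in the controls (change -0.70 ± 0.14 (SE), adjusted p = 0.0235). That call was lost without control replicate 1 or 2 or day 7 replicate 1 or 2 (adjusted p up to 0.114) and with normexp (adjusted p = 0.0654), where 1 of the 19 was called higher and 0 lower.

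Genes of the cell cycle formed the list with the most calls, and it was also the longest list. Larger shares of the measured members rose in other lists, such as acute phase (3 of 5) and macrophage (5 of 9), and 2.15% of all named genes rose. Of 33 measured members, 12 rose, 0 fell and 21 were not called, and 28 had a change above 0 (median 0.72, or 0.51 with unmeasured genes at their bound; 1.02, 0.75 and 0.83 within slides 1, 2 and 3). CDK1, the kinase of mitotic entry, had levels of -0.65, -1.06 and -0.54 on day 7, against -3.66, -3.55 and -2.99 in the controls, a 6.29-fold rise (change 2.65 ± 0.30 (SE), adjusted p = 0.00108). NDC80, a kinetochore protein, had levels of -1.37, -1.34 and -1.44 on day 7, against -3.76, -3.61 and -3.61 in the controls, a 4.85-fold rise (adjusted p = 0.000455). MKI67, the Ki-67 antigen of proliferating cells, had levels of -0.70, -1.23 and -1.42 on day 7, against -2.59, -2.83 and -3.34 in the controls, a 3.49-fold rise (adjusted p = 0.0057). The ubiquitin-conjugating enzyme UBE2C, well above background on 1 of the 3 control arrays, had a fitted change of 1.98 (adjusted p = 0.00344). NCAPG, a condensin subunit, was well above background on no control array and rose at least 1.88-fold (adjusted p = 0.000608). The same holds for the checkpoint genes BUB1B (at least 1.97-fold) and BUB1 (at least 1.23-fold), for RRM2, which makes deoxynucleotides (at least 1.35-fold), and for MCM4, a subunit of the replicative helicase (at least 1.72-fold).

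These transcripts were dim: the cell cycle genes named so far lay below the 75th percentile on all 6 arrays. With normexp background correction 4 of the 33 were called higher, and the change of CDK1 was 1.08 (adjusted p = 0.00778), that of NDC80 0.73, that of MKI67 0.80 and that of UBE2C 0.61, the last not called (adjusted p = 0.113). CDK1, NDC80 and MKI67 were each well above background on 2 of the 3 control arrays. The count called higher lay between 9 and 14 when 1 array was left out. CCND1, the cyclin of early G1, was not called, with levels of 1.96, 1.74 and 1.47 on day 7 and 2.10, 2.59 and 2.44 in the controls (change -0.65, adjusted p = 0.111). Probes described as CCNA2, cyclin A2, were not counted in the list and not called (changes 0.43, 0.20 and 0.40).

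Chains of type I collagen rose, while most matrix genes were not called. Of 27 measured matrix genes, 3 rose, 0 fell and 24 were not called (median change 0.32), and 1 was called higher without control replicate 1 or any of the day 7 replicates. COL1A1, a chain of type I collagen, had levels of 4.31, 4.45 and 4.22 on day 7, against 2.97, 3.17 and 2.14 in the controls, a 2.96-fold rise (change 1.57 ± 0.23 (SE), adjusted p = 0.00465). Probes described as COL1A2, the partner chain, rose alike: all 5 were called, and one of them had levels of 8.38, 8.49 and 8.38 on day 7, against 6.95, 7.05 and 6.90 in the controls (change 1.45, adjusted p = 0.000455). COL3A1, a chain of type III collagen, rose 2.06-fold, with 3 of its 5 probes called. Its levels were 8.24, 8.02 and 8.37 on day 7, against 6.79, 7.74 and 6.98 in the controls, of which control replicate 2 was nearest to the day 7 arrays. The small proteoglycan LUM rose 2.03-fold. The call of COL3A1 was lost without control replicate 1, without each day 7 replicate (adjusted p up to 0.123) and with quantile normalization (adjusted p = 0.0982), and that of LUM without each of the arrays other than control replicate 3 (adjusted p up to 0.149) and with normexp (adjusted p = 0.0509). COL5A1, a chain of type V collagen, changed by 0.23 (adjusted p = 0.468). ECM1, extracellular matrix protein 1, and CD248, endosialin of fibroblasts and pericytes, were picked after their values were seen: ECM1 rose 3.81-fold (change 1.93, or 1.29 with normexp, adjusted p = 0.00263) and CD248 2.01-fold (adjusted p = 0.00588).

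The summed linear signal of the 4 measured fibroblast and leptomeningeal markers of 5 was 1026 to 1332 on day 7 and 1015 to 2111 in the controls, and overlapped. Most of it came from PTGDS, which was not called (change -0.51, adjusted p = 0.283). Of 14 measured genes of that list, 2 rose, COL1A1 and LUM, and 0 fell (median change 0.23).

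Matrix proteases moved in opposite directions. MMP9, gelatinase B, had the largest fall of the comparison, with levels of -1.31, -1.33 and -2.32 on day 7, against 0.09, 0.98 and 1.19 in the controls. It fell by 2.41 ± 0.33 (SE) on the log2 scale, a level 5.32-fold lower (adjusted p = 0.00344), and the call was kept without each array; with normexp the fall was smaller, at a change of -1.49. Its change within slides 1, 2 and 3 was -1.40, -2.32 and -3.52. TIMP1, an inhibitor of metalloproteinases, rose 2.79-fold, with levels of 5.79, 5.24 and 5.19 on day 7 and 3.68, 3.99 and 4.08 in the controls (adjusted p = 0.0172), though not without control replicate 1 or day 7 replicate 1 (adjusted p up to 0.0833). PLAU, urokinase, rose 1.86-fold (adjusted p = 0.0464), but not without each of the arrays other than control replicate 3 (adjusted p up to 0.154) or with normexp (adjusted p = 0.0561). MMP2, gelatinase A, changed by 0.86 (adjusted p = 0.104). These 2 rises and 1 fall were among 17 measured proteases and inhibitors.

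Among growth factors and their receptors, 1 of 21 rose and 1 fell. IGF1, insulin-like growth factor 1, had levels of 0.70, 0.85 and 0.86 on day 7, against -0.71, -0.57 and -0.03 in the controls, a 2.36-fold rise with all 5 probes called (change 1.24 ± 0.20 (SE), adjusted p = 0.00764). The receptor ERBB2 fell (change -1.30, adjusted p = 0.0387), with levels of -3.0, -3.21 and -2.89 on day 7, against -1.72, -2.45 and -1.02 in the controls; without control replicate 1 or any of the day 7 replicates its call was lost (adjusted p up to 0.119), as it was with normexp (change -0.38, adjusted p = 0.532), and 2 of the 3 control arrays were well above background. Of 16 measured Wnt pathway genes, RSPO1 fell and 0 rose. RSPO1, R-spondin 1, which amplifies Wnt signals, had levels of -0.47, 0.05 and -0.21 on day 7, against 0.98, 1.23 and 1.62 in the controls, 2.81-fold lower (adjusted p = 0.00358). Of 16 measured genes of TGF-beta and BMP signalling limma called 0, with 5 below an unadjusted p of 0.05 and 2 called lower with array weights (median change 0.03).

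The contractile apparatus of smooth muscle had the lowest median of all the lists, -0.51, but no gene in it was called. Of 25 measured members, 19 had a change below 0; limma called 0, although 11 had an unadjusted p below 0.05, all of them lower, and in 10 of the genes with a change below 0 the groups did not overlap. Over all tested genes 9.27% had an unadjusted p below 0.05 and a change below 0, and 11.2% did not overlap and were lower. The within-slide medians were -0.52, -0.41 and -0.52. TAGLN, transgelin, an actin-binding protein of smooth muscle, had levels of 6.08, 6.13 and 5.85 on day 7, against 7.01, 6.79 and 6.48 in the controls (change -0.74 ± 0.18 (SE), adjusted p = 0.0563). CSRP1, a LIM protein, had levels of 2.86, 2.87 and 2.67 on day 7, against 3.86, 3.74 and 3.10 in the controls (change -0.77, adjusted p = 0.0575). ACTA2, smooth muscle actin, had levels of 6.84, 7.28 and 6.87 on day 7, against 7.49, 7.88 and 7.48 in the controls (change -0.62, adjusted p = 0.228). MYH11, smooth muscle myosin, had levels of 6.30, 6.25 and 5.59 on day 7, against 7.33, 6.90 and 6.30 in the controls, with day 7 replicate 1 level with control replicate 3 (change -0.80, adjusted p = 0.186, or 0.0179 with the slide as a replicate block). A further probe that the array describes as smooth muscle myosin heavy chain, not counted in the list, changed by -0.04 (adjusted p = 0.964). The summed linear signal of the 5 smooth muscle markers was 323 to 423 on day 7 and 506 to 668 in the controls. With the slide as a replicate block 2 of the 25 were called lower, with array weights 3, and without control replicate 3 4, against 0 without each of the others. FLNC, filamin C, HSPB2, a small heat shock protein of muscle, and SORBS2, an adaptor at the actin cytoskeleton, are outside the list, were picked after their values were seen and fell (changes -0.89, -0.77 and -0.72); the 3 calls were lost without each of the arrays other than control replicate 3 (adjusted p up to 0.155) and with normexp (adjusted p of 0.0881, 0.0579 and 0.133).

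**Figure D3:**
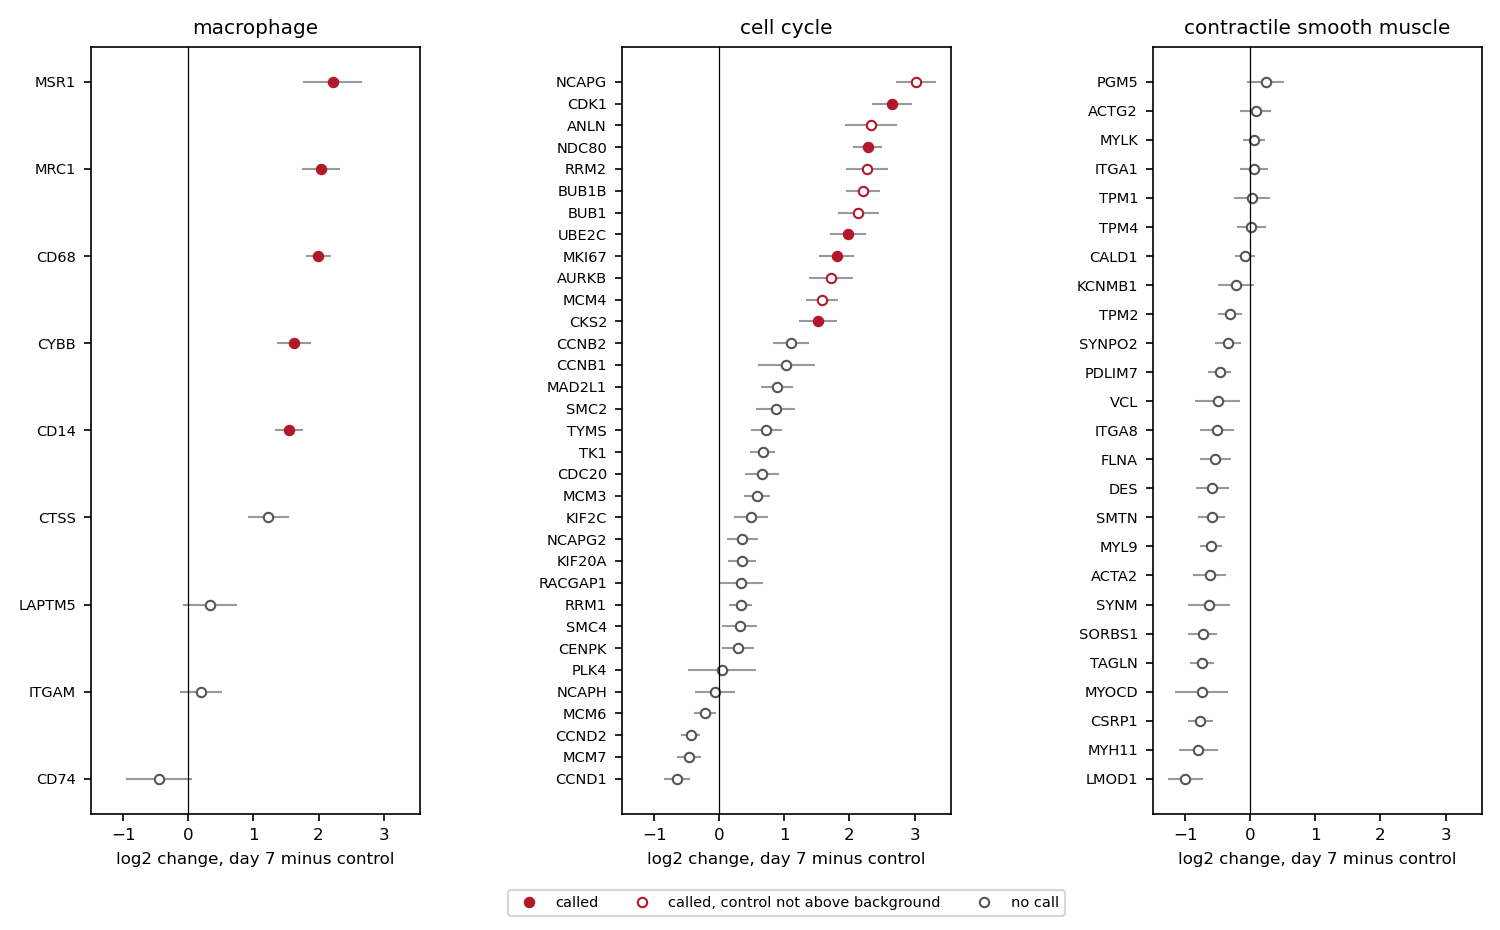
Log2 change, day 7 minus control, of every measured gene of 3 lists, with bars of 1 SE of the fit. Filled red points were called, open red points were called while no control array was well above background, and open grey points were not called. In the macrophage list 5 of 9 and in the cell cycle list 12 of 33 were called higher, while 19 of 25 contractile smooth muscle genes lie below 0 and none was called.

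The genes that set vascular tone were mostly not called. EDN1, endothelin 1, had levels of -0.13, -0.10 and 0.56 on day 7, against 0.32, 0.30 and 0.25 in the controls, and the groups overlapped (change -0.18 ± 0.25 (SE), adjusted p = 0.736). Its receptors EDNRA and EDNRB changed by 0.03 ± 0.15 and -0.51 ± 0.33 (SE, adjusted p of 0.927 and 0.441). NOS3, endothelial nitric oxide synthase, had levels of 1.70, 1.58 and 0.58 on day 7, against 2.81, 1.72 and 2.20 in the controls (change -0.96 ± 0.32 (SE), adjusted p = 0.141). The pore subunit of the L-type calcium channel, CACNA1C, had levels of 0.80, 0.98 and 0.56 on day 7, against 1.94, 1.69 and 1.07 in the controls (change -0.79 ± 0.21 (SE), adjusted p = 0.0777). KCNMA1, the large-conductance potassium channel, changed by -0.70, the kinase ROCK2 by -0.31 and the GTPase RHOA by 0.17, and none of the 3 was called.

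Among 8 measured vasoconstrictor genes limma called 0 (2 below an unadjusted p of 0.05), among 27 ion channel and calcium genes 0 (7 below, all lower), and among 20 calcium sensitization genes 0 (1 below), beside 19.8% of all genes below that p and 9.27% below it and lower. Array weights called 1, 3 and 0 of them lower. Of 14 vasodilator genes 1 rose: PTGER4, the EP4 prostaglandin receptor, 2.01-fold (adjusted p = 0.0235), with levels of 2.49, 2.55 and 2.45 on day 7 and 1.62, 1.12 and 1.73 in the controls. That call was lost without each of the arrays other than control replicate 3 (adjusted p up to 0.0913). Of 9 endothelial genes limma called 0, with 3 below an unadjusted p of 0.05, all lower, and array weights called 2 lower. PECAM1, the endothelial adhesion molecule, changed by -0.19 (limma adjusted p = 0.771). The summed linear signal of the 3 tested endothelial markers and 1 untested one was 53.2 to 66.2 on day 7 and 48.8 to 60.9 in the controls. Most of that sum came from VWF (change 0.12, limma adjusted p = 0.793), while TEK changed by -0.48 (limma adjusted p = 0.429).

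The other falls among the 15 largest were smaller than that of MMP9. DYNC1I1, an intermediate chain of the dynein motor, fell by 1.89 (adjusted p = 0.00992), a call lost without day 7 replicate 3 (adjusted p = 0.0511). CX3CR1, the fractalkine receptor of monocytes and microglia, had levels of -3.13, -2.88 and -3.75 on day 7, against -1.46, -1.83 and -1.62 in the controls (change -1.62, adjusted p = 0.0345). ADORA3, the adenosine A3 receptor, fell by 1.67 (adjusted p = 0.0452), and ITGA6, the laminin-binding integrin subunit, fell by 1.36 (adjusted p = 0.045). In the fit with a slide block CX3CR1, ADORA3 and ITGA6 were not called (adjusted p of 0.0504, 0.0516 and 0.0542). CX3CR1 also lost its call without each of the arrays other than control replicate 3 (adjusted p up to 0.131), ADORA3 without control replicate 1 or 2 or day 7 replicate 2 or 3 (up to 0.155), and ITGA6 without each day 7 replicate (up to 0.146). With normexp DYNC1I1, CX3CR1 and ADORA3 had changes of -0.57, -0.41 and -0.36 and were not called (adjusted p of 0.208, 0.271 and 0.464); DYNC1I1 and ADORA3 were each well above background on 2 of the 3 day 7 arrays.

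Besides MMP9 and RSPO1, 2 falls were kept without each array. TXNIP, which binds and inhibits thioredoxin, had levels of -0.21, -0.27 and -0.18 on day 7, against 1.0, 0.68 and 0.61 in the controls, 1.98-fold lower with both probes called (adjusted p = 0.00588). KLHDC8B had levels of -1.77, -1.80 and -1.84 on day 7, against -0.39, -0.51 and -1.03 in the controls, 2.24-fold lower (adjusted p = 0.00948), though not called with normexp (adjusted p = 0.0556).

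Some markers of neighbouring tissue were bright, and others were not well above background. PTGDS of the leptomeninges was bright on all arrays, with levels of 9.61 to 10.004 on day 7 and 9.79 to 10.902 in the controls. CKM, the muscle creatine kinase, was well above background on all 6 arrays. Its levels were 2.27, 2.09 and 1.41 on day 7 and 1.78, 1.93 and 2.43 in the controls, and the groups overlapped (limma adjusted p = 0.935). The skeletal muscle markers MYH1 and TNNT3 were too dim to test. TNNT3 was well above background on none of the 6 arrays and MYH1 on 1, a control array. Of 7 measured neural and glial genes limma called 0, with 1 below an unadjusted p of 0.05 (median change -0.40), and the defining markers GFAP and AQP4 were not well above background on any of the 6 arrays. Of 4 peripheral nerve genes limma called 0 and none had an unadjusted p below 0.05. Of 4 skeletal muscle genes 0 were called, with 1 below an unadjusted p of 0.05; ACTA1 changed by -0.52 and its probe, like that of ACTA2, was bright on all arrays. Of 21 genes of oxidative phosphorylation limma called 0 and none had an unadjusted p below 0.05 (median change 0.23), and of 12 genes of the unfolded protein response it called 0, with 2 below (median change 0.25). None of these 5 lists gained a call with array weights.

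Levels on day 7 can be placed beside those of days 3 and 5, which were compared with the same 3 control arrays. Between day 7 and day 3 limma called 1 gene higher (0.0139% of the tested genes) and 6 lower (0.0832%), and between day 7 and day 5 it called none of the 7209 genes, with 105 below an unadjusted p of 0.05. CRYBA4 stood at -2.22 ± 0.69 in the controls, 2.39 ± 0.42 on day 3, 1.89 ± 1.0 on day 5 and 2.34 ± 0.41 on day 7 (SD, n = 3 each). CD68 changed by 2.17 on day 3, 1.88 on day 5 and 2.0 on day 7, all against the controls. COL1A1 changed by 1.56, 1.62 and 1.57 on days 3, 5 and 7. HP changed by 5.76 on day 3, 3.35 on day 5 and 3.50 on day 7, but its day 7 minus day 3 difference of -2.26 was not called (adjusted p = 0.18).

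In other genes the fitted change was larger on day 7 than on day 3, without a call between the days. SLC15A2 changed by 2.13 on day 3, 3.50 on day 5 and 4.12 on day 7 against the controls, with a day 7 minus day 3 difference of 1.99 (adjusted p = 0.15). IGF1 changed by 0.35 on day 3, 0.91 on day 5 and 1.24 on day 7, and was called on days 5 and 7; its difference between days 7 and 3 was 0.89 (adjusted p = 0.15). C3 changed by 0.39 on day 3, 1.78 on day 5 and 2.12 on day 7, with a day 7 minus day 3 difference of 1.73 (adjusted p = 0.15). For MMP9 the difference between the days was called: its change against the controls was -0.24 on day 3, -1.71 on day 5 and -2.41 on day 7, and the day 7 minus day 3 difference was -2.17 (adjusted p = 0.047). This call was lost with the slide as a replicate block (adjusted p = 0.0757), with quantile normalization or median centring (adjusted p = 0.0532 in both), and when any array of these days other than day 3 replicate 1 was left out (adjusted p between 0.0892 and 0.23).

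**Figure D4:**
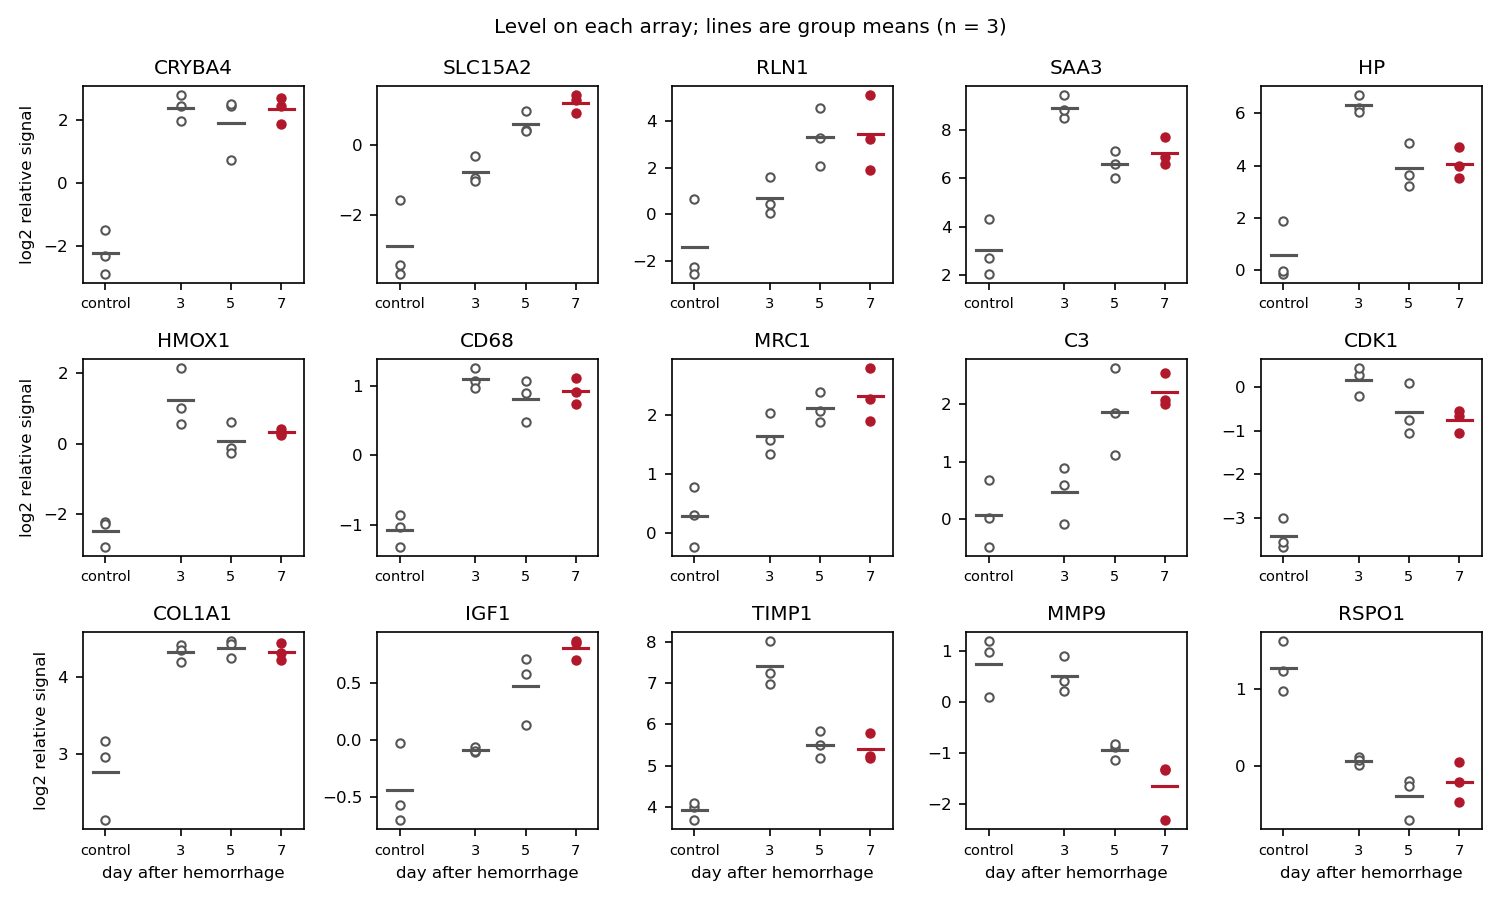
Levels of 15 genes on every array of the control group and of days 3, 5 and 7, on the log2 scale with 0 at the array's 75th percentile, with filled points for day 7 and lines for group means (n = 3 arrays each). MMP9 is lower on days 5 and 7 than in the controls, IGF1 and C3 are highest on day 7 in the mean, and SAA3, HP, HMOX1 and TIMP1 have their highest mean on day 3.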

How the data were processed

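RNA of rabbit basilar arteries was hybridised to 12 single-colour (Cy3) arrays, per the labels. The deposited scanner files were written by Agilent Feature Extraction, version 9.5.1.1. The processed intensity had background subtracted and spatial trends removed within each array, and the mean and background intensity columns are raw, per the file headers. Flags for spots above background, outliers and saturation hold other values, 0 or 1, per the file headers. The values that the authors deposited for all arrays are an intensity on a linear scale, checked to have the same median on every array (27.0) and used as an alternative only. They were listed here as quantile-normalized intensities, which was not checked beyond the shared median.

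Control spots were left out, outlier spots set to missing, log2 signals taken relative to each array's 75th percentile over non-control spots, and spots of a probe averaged. Of 43623 probes 22976 matched 1 gene, 121 several and 20526 none, by identifiers matched to a RefSeq gene list (assembly mOryCun1.1, names only); no coordinates or sequences are given. limma 3.58.1 (R 4.3.3, version 1.17.8 of data.table) fitted all 12 arrays without a block (8 residual degrees of freedom), two-sided. Only 1 called gene had a missing spot. The fit was also run on simulated data drawn with independent noise for each array. That run held no slide effect and no array of lower quality, so it does not bear on either. A bound ("at least") sets the brighter group's mean against the dim group's mean of, per array, whichever is higher, the probe's own signal or the lowest signal among probes well above background.

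Genes are named by rule: the 15 largest called rises and falls without overlap, up to 4 called members of each of 36 lists by adjusted p (with none called, the 2 with the smallest p), and fixed genes of vasospasm; others were picked after their values were seen, as were further members of the cell cycle, complement and lysosome lists. A few genes that the rule picks are counted but not reported here by name. Members and lists were chosen with earlier results of these data known. Replicates 1, 2 and 3 share slides 1, 2 and 3, per the file headers. Deviations from the group means of same-numbered day 7 and control arrays correlated at 0.133, 0.012 and 0.178 across probes. With control arrays of another number the correlations were at most 0.056, -0.0002 and -0.061. The numbers were not taken as a pairing in the fit reported, and the slide block was run as an alternative. The number of arrays limits the precision. Alternatives covered background correction, scaling, filters, outlier spots, arrays in the fit, slide block, array weights, left-out arrays and probe choice.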

Additional observations from a re-analysis of the deposited data

Results flagged for a closer look

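The fit gave 6 named differences between day 7 and day 3, among the genes picked by rule, at an adjusted p of 0.047 each (limma), and these are the values that differ between the 2 days under the same comparison with the controls. MMP9 was lower on day 7 than on day 3 by -2.17 (log2), with levels of -1.31, -1.33 and -2.32 on day 7 and 0.22, 0.91 and 0.42 on day 3. TIMP1 differed by -2.0, with levels of 5.79, 5.24 and 5.19 on day 7 and 6.98, 7.24 and 8.01 on day 3. The mitotic genes BUB1B and CDC20 differed by -1.61 and -1.64, and ESM1, the endothelial proteoglycan endocan, by -1.50, with levels of 2.0, 1.28 and 1.62 on day 7 and 2.96, 3.49 and 2.95 on day 3. LRRC17, which the array describes as similar to a slit protein, was the 1 gene that was higher, by 1.85, with levels of -0.21, 1.04 and 0.54 on day 7 and -1.53, -1.17 and -1.47 on day 3.

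All 6 stand close to the threshold, and their calls depend on the setting. Against the controls, LRRC17 changed by 0.76 on day 7 (adjusted p = 0.205), CDC20 by 0.65 (adjusted p = 0.22) and ESM1 by 0.42 (adjusted p = 0.367), none of them called.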

How the results depend on the processing

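The number of calls depended on the processing. Of the 63 called genes chosen by rule none changed sign under the alternatives run, which says little about their directions. All of them were free of overlap between the groups, so that leaving out 1 array could not reverse the sign of a change. Against 509 probes higher and 116 lower in the fit reported, normexp background correction gave 228 higher and 52 lower, testing all probes without a filter on dim ones 231 and 74, testing only probes well above background on all 6 arrays 295 higher, array weights 980 and 584, and the replicate block 825 and 188. Centring arrays on their median gave 76 lower, and fitting the 6 compared arrays alone 53 lower. Centring on the median also moved the median change of all tested probes to 0.13, against 0.07 as reported. Leaving out 1 array gave 219 to 1182 higher and 25 to 574 lower, the highest counts without control replicate 3 and the lowest without day 7 replicate 1. For genes, array weights gave 285 higher and 230 lower, with 194 of the 201 calls shared, normexp 82 and 14 with 87 shared, and the 6 arrays alone 105 and 10 with 99 shared; the cause was not tested. Of the 63 genes, 35 were called with normexp, 31 without a filter, 40 with 6 arrays, 59 with the replicate block and 33 to 60 with 1 array left out. In deviations from the group means, taken without a block, each day 7 array was most like the control array of its own number. The correlations were 0.133, 0.012 and 0.178, against at most 0.056, -0.0002 and -0.061 with control arrays of another number.

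Between day 7 and day 3, 37 probes were called as reported, 15 with quantile normalization or the authors' value table, 52 without day 3 replicate 1, and 0 with median centring, the 6 arrays alone, the replicate block or any other left-out array. Between day 7 and day 5, 0 probes were called, with 329 below an unadjusted p of 0.05 (limma), and 0 under every alternative run. Dim probes limit the comparison: 21 of the rises have no control array well above background. With normexp and its offset of 50, which by itself shrinks changes of dim probes, all 21 had a smaller fitted change and 0 were called. With quantile normalization HEXA, ORM1, C6, C1S, COL3A1, LOC100009136, ERBB2, FLNC and ADORA3 were among the genes no longer called (adjusted p between 0.0513 and 0.204).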

Other observations

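SCUBE2 and CLSTN2 were among the genes whose calls on day 7 were kept without each array while the change on day 3 was not called. SCUBE2, a secreted protein with EGF-like domains, had levels of 4.07, 4.55 and 4.46 on day 7, against 3.36, 2.98 and 3.24 in the controls (change 1.17, adjusted p = 0.00824 with limma), and all 3 of its probes were called. Its change was 0.30 on day 3, and the day 7 minus day 3 difference of 0.87 was not called (adjusted p = 0.14). CLSTN2, calsyntenin 2, was well above background on all 3 day 7 arrays and on no control array (adjusted p = 0.00729), with no fold given since its bound is below 1. The transcript LOC100134862 had levels of 8.63, 8.76 and 8.65 on day 7, against 7.25, 7.32 and 7.26 in the controls (change 1.40 ± 0.13 (SE), adjusted p = 0.000455). GADD45A, induced by growth arrest and DNA damage, rose 2.22-fold with all 5 probes called (adjusted p = 0.00584).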
